A study of Mus musculus with 6 samples.

Results

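The 10 genes described here encode C-type lectin receptors of myeloid cells. They are Clec4e (Mincle), Clec4d, Clec4n, Clec7a, Clec4a1, Clec4a2, Clec4a3, Clec10a, Clec12a and Clec5a, chosen by name from the 17119 gene symbols of the count table. The list was drawn up with the difference between the genotypes already known for these samples, so the values of the 10 genes in that comparison are given as a description and support no claim of their own. RNA was sequenced from unfractionated liver of mice after 12 weeks on HFHCD, a diet rich in fat and cholesterol that produces fatty liver with inflammation. The heterozygous livers (genotype Clec4f-iCre;Cebpbfl/+, 3 libraries) had 1 floxed copy of Cebpb, the gene of the transcription factor C/EBPβ. The wild-type livers (Clec4f-iCre;Cebpb+/+, 3 libraries, littermates) had none, and both groups carried the Cre and ate the same diet. Clec4f drives expression in Kupffer cells, the macrophages resident in liver, so deletion was aimed at those cells while the RNA came from the whole organ. The genotype labels of replicates 2 and 3 spell the driver Clec5f and Clec6f, and the series design, which names Clec4f throughout, was followed.

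C-type lectin receptors bind sugars, glycolipids and products of dying cells on the surface of macrophages, monocytes, neutrophils and dendritic cells. The activating members signal through adaptor chains with tyrosine motifs, Fcer1g for Clec4e, Clec4d and Clec4n and Tyrobp for Clec5a, or through a motif in their own tail, as Clec7a does. These motifs recruit the kinase Syk, which acts through the Card9, Bcl10 and Malt1 complex to switch on cytokine genes. Clec4a2 and Clec12a carry an inhibitory motif that recruits phosphatases. The mouse Clec4e gene was first described in macrophages as a target of C/EBPβ and is induced by inflammatory stimuli, which is why it bears on this genotype.

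Library totals lay between 16895322 and 17750755 counts, and levels are in CPM, counts scaled to a common library size with TMM factors. Hepatocyte markers (Alb, Ttr, Apoa1 and Tat) summed to 93947 to 116523 CPM in heterozygous and 83676 to 117242 CPM in wild-type livers, as in liver tissue. Cebpb itself stood at 204, 498 and 269 CPM in heterozygous replicates 1, 2 and 3 and, in the wild-type ones, at 506, 308 and 340.4 CPM, so the groups overlapped. Of 12706 genes tested with edgeR, 74 had an adjusted p under 0.05. Summed markers of several leukocyte classes and of stellate cells were lower in every heterozygous library than in any wild-type library. The 4 leukocyte markers (Ptprc, Coro1a, Laptm5 and Itgb2) summed to 58.1 to 70.5 CPM in heterozygous and 133 to 182 CPM in wild-type libraries, and the 6 macrophage markers to 222 to 278 and 451 to 775 CPM. The 6 Kupffer cell markers summed to 87.9 to 128 and 174 to 370 CPM, the 6 monocyte markers to 87.9 to 114 and 231 to 387 CPM, the 7 neutrophil markers to 7.28 to 12.3 and 22.4 to 29.7 CPM, and the 5 dendritic cell markers to 9.39 to 19.1 and 23.3 to 28.6 CPM. The Kupffer cell markers were Clec4f itself, Vsig4, Timd4, Cd5l, Marco and Folr2, with Cd5l the largest (means of 77.5 and 181 CPM). Timd4 and Folr2 overlapped between the groups, and the Folr2 mean was higher in heterozygous livers (9.25 and 6.95 CPM). In the monocyte, neutrophil and dendritic cell lists Cx3cr1, Cxcr2, Retnlg, Mmp8 and Zbtb46 overlapped. The 5 stellate cell markers summed to 117 to 165 CPM in heterozygous and 173 to 217 CPM in wild-type libraries, and the 4 T and NK cell markers to 3.94 to 4.72 and 7.77 to 11.7 CPM, while the 4 B cell markers overlapped (2.67 to 4.95 and 2.56 to 6.86 CPM). Of the stellate cell markers only Col1a1 did not overlap, with means of 38.0 CPM in heterozygous and 77.9 CPM in wild-type livers. Lrat, Des, Reln and Pdgfrb overlapped, with log2 fold changes of 0.14 for Lrat and −0.01 for Des. Among the neutrophil markers, Ly6g had 0 counts in each heterozygous library and 1 count in each wild-type library. The part of these cell classes in the receptor values was not tested, and in whole liver fewer cells of a type and less RNA per cell cannot be told apart.

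Among the activating receptors, Clec4e had 14, 9 and 8 counts in heterozygous replicates 1, 2 and 3, against 44, 45 and 60 counts in wild-type replicates 1, 2 and 3. In CPM these were 0.815, 0.545 and 0.459 in heterozygous livers and 2.68, 2.45 and 3.28 in wild-type livers. The highest heterozygous library was thus well under the lowest wild-type one, and the 3 wild-type libraries lay close together. Mean levels were 0.606 ± 0.186 CPM and 2.81 ± 0.431 CPM (SD, n = 3 each), and Clec4e fell 4.58-fold (log2 fold change −2.20 ± 0.33 SE, 95% interval −2.95 to −1.44, edgeR adjusted p = 0.0357). The call was lost without any single library, with edgeR adjusted p from 0.0533 to 0.180 over the 6 fits, while the log2 fold change stayed between −2.45 and −2.03. Over all alternatives with edgeR, DESeq2 and limma-voom the adjusted p of Clec4e ran from 8.35e-05 to 0.236.

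The sequence upstream of Clec4e is shown because C/EBPβ is the factor whose gene was targeted. It is the RefSeq promoter of build GRCm38.p6 (the counts were made on GRCm39), chr6:123289872-123290121 on the minus strand, from 250 bases to 1 base before the annotated start. Capitals mark matches to a C/EBP core, TTNNGNAA on either strand.
Clec4e: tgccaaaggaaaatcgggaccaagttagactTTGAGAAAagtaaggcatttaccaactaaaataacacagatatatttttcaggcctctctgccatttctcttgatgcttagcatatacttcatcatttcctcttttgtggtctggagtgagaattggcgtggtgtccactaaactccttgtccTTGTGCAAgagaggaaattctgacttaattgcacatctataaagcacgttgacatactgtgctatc

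The 2 matches in Clec4e began at −219 and −66, counted from the start. The proximal one reads TTGTGCAA. Windows from 250 bases before to 50 bases after the start existed for 8 of the 10 genes, all but Clec4n and Clec10a. These 8 genes had 10 windows, since Clec7a and Clec4a3 had a pair each. The C/EBP core was in 5 of the 10 windows, in 5 genes, against 40.7% of all 32851 mouse windows of this length, so the motif is common and the count is a description. Stretches from the other 4 genes follow, on the same build and with the same use of capitals, for comparison with Clec4e.
Clec4d (chr6:123262033-123262106, plus strand): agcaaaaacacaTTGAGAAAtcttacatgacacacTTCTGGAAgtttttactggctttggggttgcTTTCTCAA
Clec12a (chr6:129350092-129350176, plus strand): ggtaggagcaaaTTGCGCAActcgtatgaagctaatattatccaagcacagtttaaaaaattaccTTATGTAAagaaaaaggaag
Clec5a (chr6:40585906-40585937, minus strand): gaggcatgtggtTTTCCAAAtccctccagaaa
Clec4a2 (chr6:123122440-123122468, plus strand): atgccaaaTTTTGGAAAtaaaacgaaacc

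Clec12a held TTGCGCAA, which reads the same on both strands, at −140, and a further match downstream of its start. In Clec4a2 the capitals cover 2 overlapping matches. A PU.1 core, GAGGAAG on either strand, was found in 4 of the 10 windows (Clec4d, Clec4a1, Clec12a and Clec5a), against 13.6% of all windows. An NF-κB core (GGG and CC with 5 bases between them, either strand) was found in 1 of the 10 windows (Clec4a1), as 2 overlapping matches, against 50.8% of all windows. These are letter matches in a short window and say nothing of binding.

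Clec4d encodes the partner receptor that sits with Mincle at the cell surface and helps bring it there. It had 8, 14 and 9 counts in heterozygous replicates 1, 2 and 3, against 25, 20 and 24 in wild-type replicates 1, 2 and 3. The groups did not overlap but came close, at 0.848 CPM in the highest heterozygous and 1.09 CPM in the lowest wild-type library. The log2 fold change of −1.09 ± 0.38 was the smallest in size of the 10 genes.

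Clec4n (Dectin-2) is a receptor for fungal mannans. Its counts were 39, 24 and 73 in heterozygous replicates 1, 2 and 3, against 90, 170 and 128 in wild-type replicates 1, 2 and 3. Heterozygous replicate 3 came nearest to the wild-type range, at 4.19 CPM against 5.49 CPM in the lowest wild-type library, and the log2 fold change was −1.45 ± 0.37.

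Clec7a (Dectin-1), the receptor for fungal β-glucans, was the most abundant of the 10. It had 155, 74 and 174 counts in heterozygous livers, against 193, 382 and 335 in wild-type livers, in replicate order. Heterozygous replicate 3 at 9.98 CPM and wild-type replicate 1 at 11.8 CPM were neighbours, so the groups were separated by little. Its log2 fold change was −1.11 ± 0.33 (7.83 ± 2.94 and 17.0 ± 4.66 CPM, SD, n = 3 each, heterozygous and wild-type livers).

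Clec5a, which signals through Tyrobp, was the scarcest of the activating receptors, with 5, 1 and 10 counts in heterozygous replicates 1, 2 and 3, against 18, 19 and 22 in wild-type replicates 1, 2 and 3. The wild-type libraries varied little (1.11 ± 0.086 CPM), whereas the heterozygous ones spanned 0.0606 to 0.573 CPM, and heterozygous replicate 2 rested on that single count. The log2 fold change was −1.81 ± 0.57, with −1.35 without heterozygous replicate 2 and −2.60 without heterozygous replicate 3.

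**Figure D1:**
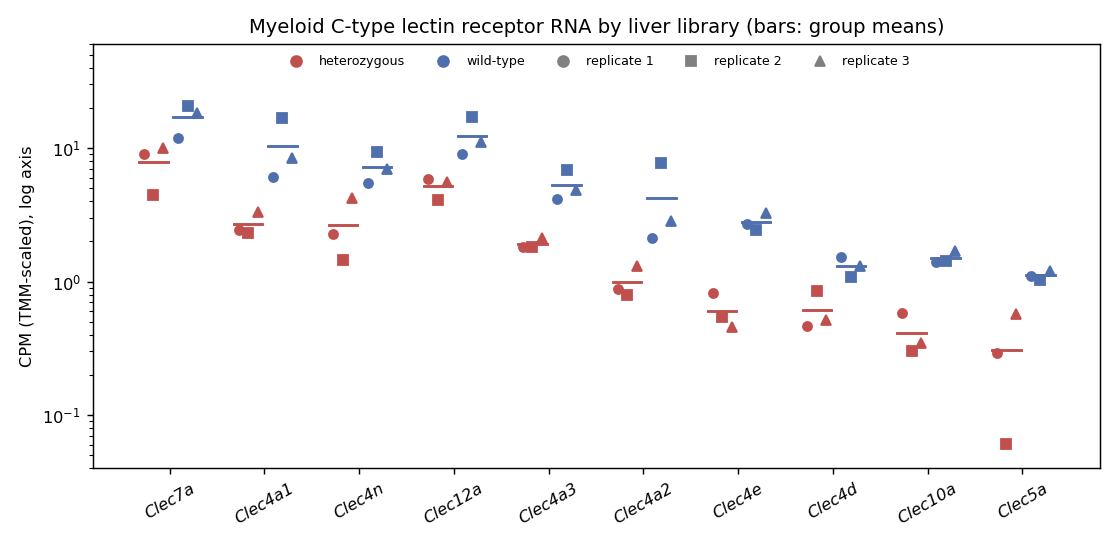
CPM (TMM-scaled, log axis) of the 10 receptor genes in each of the 3 heterozygous (red, left) and 3 wild-type (blue, right) liver libraries, with bars for the group means and genes ordered by wild-type level per kb of exon. No gene has a heterozygous library above a wild-type one, and wild-type replicate 2 (square) is the highest wild-type library for 6 genes but not for Clec4e, Clec4d, Clec10a or Clec5a.

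Of the inhibitory and related receptors, the 3 Clec4a genes belong to the family of the dendritic cell immunoreceptor. Clec4a2, the member with a known inhibitory motif, had 15, 13 and 23 counts in heterozygous replicates 1, 2 and 3, against 35, 142 and 52 in wild-type replicates 1, 2 and 3. Wild-type replicate 2 stood far above the other wild-type libraries, at 7.73 CPM against 2.13 and 2.85 CPM. The log2 fold change of −2.09 ± 0.53 was accordingly imprecise, and without wild-type replicate 2 it was −1.31.

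Clec4a1 counted 42, 38 and 58 in heterozygous livers, against 100, 306 and 155 in wild-type livers, in replicate order. Wild-type replicate 2 was again the highest, at 16.6 CPM against 6.10 and 8.48 CPM in the other wild-type libraries. The log2 fold change was −1.95 ± 0.38, and −1.43 without that library.

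Clec4a3 counted 31, 30 and 37 in heterozygous livers, against 68, 125 and 88 in wild-type livers, in replicate order. The heterozygous libraries were the most alike of any receptor gene here, at 1.91 ± 0.179 CPM, and the wild-type mean was 5.25 ± 1.38 CPM (SD, n = 3 each). The log2 fold change was −1.45 ± 0.26. The 3 Clec4a genes belong to 1 family, and how alike their sequences are was not examined here. Reads shared by them may have been discarded in counting, so their values are uncertain. A processed pseudogene overlaps Clec4a2 on the same strand in GENCODE M21.

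Clec12a, an inhibitory receptor that senses uric acid crystals, had 101, 67 and 97 counts in heterozygous replicates 1, 2 and 3, against 148, 311 and 202 in wild-type replicates 1, 2 and 3. The means were 5.17 ± 0.974 and 12.3 ± 4.10 CPM (SD, n = 3 each), with a log2 fold change of −1.25 ± 0.26. Clec10a, a receptor for sugars that contain galactose on macrophages and dendritic cells, had 10, 5 and 6 counts in heterozygous livers, against 23, 26 and 31 in wild-type livers, in replicate order. Its groups were well apart, at up to 0.582 CPM in heterozygous and from 1.40 CPM in wild-type livers, and the log2 fold change was −1.86 ± 0.39.

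Across the 10 genes every heterozygous library was below every wild-type library, as for 11.3% of the genes tested. The log2 fold changes ran from −2.20 (Clec4e) to −1.09 (Clec4d) with a median of −1.63, against a median of 0.00 over all tested genes, and all 10 were at −1 or lower, against 4.82% of tested genes. Only Clec4e passed the edgeR threshold over all genes, which 0.559% of tested genes passed on the lower side and 0.0236% on the higher side. The other 9 had edgeR adjusted p-values between 0.0516 (Clec4a3) and 0.247 (Clec4d). DESeq2 called 8 of the 10, all but Clec4d and Clec5a, against 3.56% of tested genes called lower, and limma-voom called 0 of the 10 and 0% of tested genes. All 10 had an unadjusted edgeR p under 0.05, as did 9% of tested genes on the lower side and 4.2% on the higher side. Since the list was drawn up with this comparison known, nothing is read from these counts. In addition, 4 genes (Clec4e, Clec4d, Clec10a and Clec5a) passed the filter on low counts only through the wild-type libraries, so they had to be lower in the heterozygous ones to be tested at all.

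In the wild-type livers the receptors differed widely in level per kb of exon, a scale on which genes can be compared. Clec7a was highest at 7.42 ± 2.04 CPM per kb, followed by Clec4a1 at 6.68 ± 3.55, Clec4n at 5.84 ± 1.52, Clec12a at 4.93 ± 1.64 and Clec4a3 at 3.96 ± 1.04 CPM per kb (SD, n = 3), neighbours whose ranges overlapped. Clec4a2 (1.62 ± 1.16), Clec4e (1.11 ± 0.171) and Clec4d (0.989 ± 0.165 CPM per kb) formed a lower group, again with overlapping ranges. Clec10a at 0.602 ± 0.067 and Clec5a at 0.291 ± 0.022 CPM per kb were the lowest and did not overlap each other. In the heterozygous livers Clec7a was also the highest at 3.42 ± 1.28 CPM per kb and Clec5a the lowest at 0.0807 ± 0.0672 CPM per kb. There Clec4d (0.461 ± 0.157 CPM per kb) ranked above Clec4e (0.241 ± 0.074 CPM per kb), and in wild-type livers their ranges overlapped. The heterozygous ranges did not overlap but came close, at 0.352 CPM per kb in the lowest Clec4d and 0.324 in the highest Clec4e library. Before division by exon length (1323 and 2518 bases) the heterozygous means were alike, at 0.610 and 0.606 CPM. Both genes rested on 8 to 14 counts per heterozygous library, so no change of rank between genotypes is read from this. The exon lengths come from GENCODE M21 and may differ from the annotation used for counting.

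Summed over the 10 genes, receptor RNA stood at 23.2 ± 5.97 CPM in heterozygous and 63.2 ± 19.6 CPM in wild-type livers (SD, n = 3 each), 2.73-fold lower in heterozygous livers. Clec7a and Clec12a had the largest shares of it. Clec7a held 33.0% ± 5.34 of the receptor counts in heterozygous and 27.1% ± 3.07 in wild-type livers, and Clec12a 22.7% ± 2.67 and 19.5% ± 0.93. Clec4e held 2.74% ± 0.97 in heterozygous and 4.76% ± 1.62 in wild-type livers, with overlap between the groups (1.62% to 3.33% and 2.91% to 5.91%).

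The receptor counts were then set against RNA of leukocytes and macrophages, as counts per 100 counts of 6 leukocyte and macrophage genes (Ptprc, Coro1a, Laptm5, Csf1r, Adgre1 and Cd68) in the same library. These 6 genes together stood at 130 ± 10.9 CPM in heterozygous and 317 ± 109 CPM in wild-type livers, 2.44-fold lower in heterozygous livers. On this scale 9 of the 10 receptors overlapped between the groups, and 1, Clec4a1, did not, at 2.08 ± 0.38 and 3.16 ± 0.61 per 100 counts in heterozygous and wild-type livers. The same lack of overlap on the lower side was seen for 0.189% of tested genes. Since the denominator was itself lower in heterozygous livers, genes without that difference rise on this scale. The share over all genes is thus low by construction, and nothing is read from the count.

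Clec4e had the largest ratio between the group means on this scale. It measured 0.697, 0.401 and 0.338 per 100 counts in heterozygous replicates 1, 2 and 3, against 1.12, 0.554 and 1.22 in wild-type replicates 1, 2 and 3. Wild-type replicate 2 fell inside the heterozygous range, and the difference of the means was 2.02-fold. Clec4d (0.468 ± 0.136 and 0.458 ± 0.197), Clec12a (4.04 ± 1.02 and 3.91 ± 0.18) and Clec7a (6.12 ± 2.45 and 5.48 ± 1.17 per 100 counts) had slightly higher means in heterozygous than in wild-type livers, a sign that turned for each of them, and for Clec4n, with another denominator or a library left out. In wild-type replicate 2 the 6 denominator genes reached 442 CPM, against 239 and 269 CPM in the other wild-type libraries. This library was left out after its values were seen. Without it 5 receptors did not overlap (Clec4e, Clec4a1, Clec4a3, Clec10a and Clec5a), all lower in heterozygous livers, as for 0.63% of tested genes. That share too is low by construction, and nothing is read from the count. Whether the receptors and these genes come from the same cells was not tested.

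**Figure D2:**
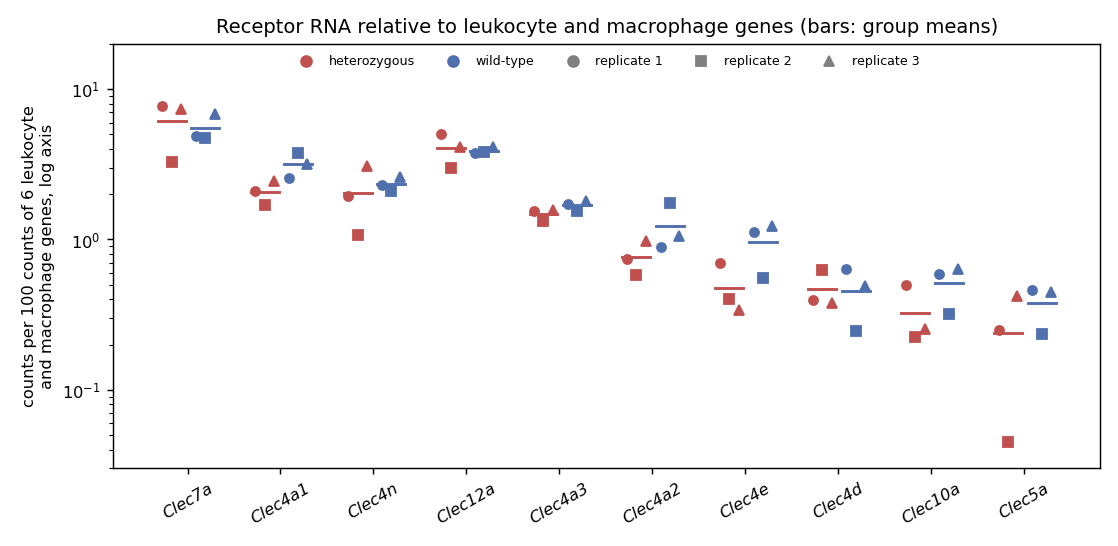
Counts of each receptor gene per 100 counts of 6 leukocyte and macrophage genes in the same library (log axis), for 3 heterozygous (red, left) and 3 wild-type (blue, right) livers, with bars for group means. The groups overlap for 9 of 10 genes, and only Clec4a1 has every heterozygous library below every wild-type one.

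Among the wild-type libraries the receptors did not all vary alike. In wild-type replicate 2, Clec4a2 was 3.10 times, Clec4a1 2.28 times, Clec12a 1.69 times, Clec4a3 1.52 times, Clec4n 1.48 times and Clec7a 1.38 times the mean of wild-type replicates 1 and 3. Clec10a (0.913 times), Clec5a (0.898 times), Clec4e (0.821 times) and Clec4d (0.767 times) were not raised there. Wild-type replicate 2 held 34.6% of the scaled wild-type depth. It held 62.0% of the wild-type counts of Clec4a2 (exact binomial 95% interval 55.4% to 68.3%) and 54.5% of those of Clec4a1 (50.3% to 58.7%), against 30.2% of those of Clec4e (23.0% to 38.3%) and 29.0% of those of Clec4d (18.7% to 41.2%). For 6 genes the interval lay above 34.6% and for the 4 least abundant it included it. The intervals of Clec10a (22.4% to 43.9%) and Clec5a (20.6% to 45.6%) also included the shares of Clec7a (42.0%) and Clec4n (43.8%). Clec10a and Clec5a are thus not set apart from those genes beyond counting error. These intervals cover counting error only.

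Marker sums varied in the same library. In wild-type replicate 2 the B cell markers were 1.92 times, the Kupffer cell markers 1.79 times, the macrophage markers 1.63 times, the monocyte markers 1.51 times, the T and NK cell markers 1.49 times and the leukocyte markers 1.36 times the mean of the other wild-type libraries. The dendritic cell markers were at 1.10 times, the stellate cell markers at 1.03 times, the sinusoidal endothelium markers at 0.96 times, the hepatocyte markers at 0.82 times and the neutrophil markers at 0.81 times. Lyz2 made up most of the monocyte sum (349 of 387 CPM in wild-type replicate 2), and the rest of that list was mixed. Ccr2 peaked in wild-type replicate 2 by little (6.75 CPM, next highest 6.18 CPM). Plac8, Ly6c2 and Itgam peaked in wild-type replicate 1 instead, and Cx3cr1 in wild-type replicate 3. The neutrophil list was mixed too. Csf3r was highest in wild-type replicate 2 (16.4 CPM, against 12.7 and 11.3 CPM in replicates 1 and 3), while S100a8 and S100a9 were lowest there. The part of these marker lists in the receptor levels was not tested. Among the heterozygous libraries, replicate 2 was the lowest for 7 of the 10 receptors and the highest for 1, Clec4d.

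**Figure D3:**
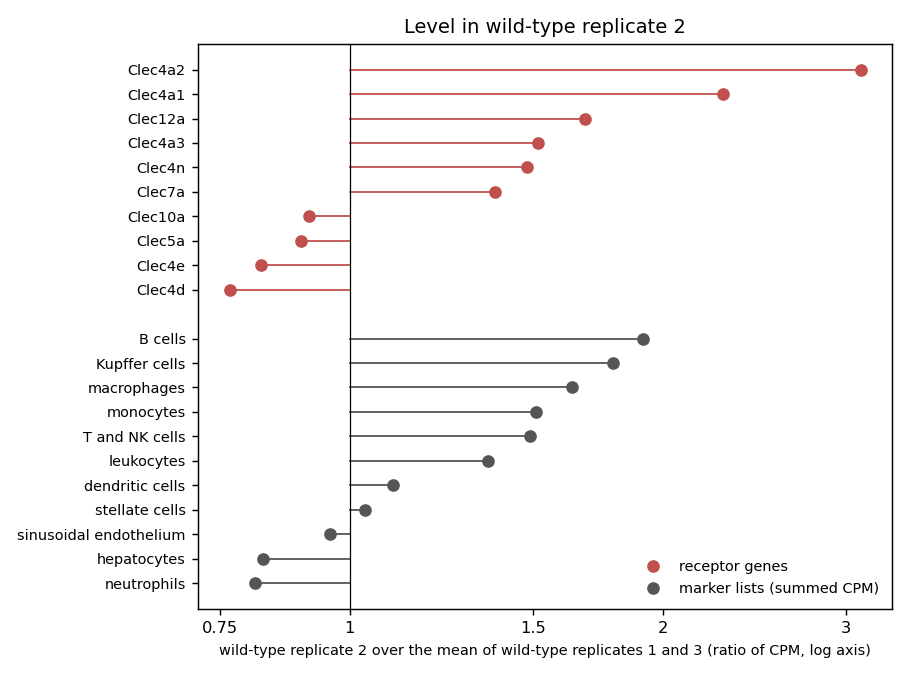
Level in wild-type replicate 2 divided by the mean of wild-type replicates 1 and 3 (log axis), for the 10 receptor genes (red) and for the summed CPM of 11 marker lists (grey). The 6 receptors from Clec4a2 at 3.10 to Clec7a at 1.38 lie above 1. So do the B cell, Kupffer cell, macrophage, monocyte, T and NK cell, leukocyte, dendritic cell and stellate cell lists. Clec10a, Clec5a, Clec4e, Clec4d and the neutrophil, hepatocyte and sinusoidal endothelium lists lie below 1.

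The profile of Clec4e over the 6 libraries was compared with those of other genes by the root mean square difference of centred log2 CPM. Of the receptors, Clec10a was by far the nearest, at 0.22, and the other 8 lay between 0.51 (Clec4a3) and 0.73 (Clec4a2). Outside the receptors the search covered only the 12057 tested genes above a minimum mean level. No such limit was set for the receptors, so scarce genes as near as Clec10a may have been missed. The 5 nearest of the 12057 genes were Cyp4f18 (0.35), a fatty acid hydroxylase of neutrophils, Sema4d (0.37), a semaphorin of lymphocytes and myeloid cells, Parvg (0.38), a leukocyte parvin, Adap1 (0.39) and Cmklr1 (0.40), the chemerin receptor. Cmklr1 measured 3.44, 3.39 and 2.06 CPM in heterozygous replicates 1, 2 and 3, against 7.93, 8.92 and 7.22 CPM in wild-type replicates 1, 2 and 3. The other 4 had log2 fold changes between −1.95 and −1.74, and all 5 were without overlap between groups, which a search for profiles like that of Clec4e brings with it.

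Of the 10 genes 9 lie on chromosome 6 and Clec10a lies on chromosome 11. Clec4a1, Clec4a3, Clec4a2, Clec4n, Clec4d and Clec4e share 1 stretch of 9 neighbouring protein-coding genes in the RefSeq order, with Clec4n, Clec4d and Clec4e next to each other. The other 3 genes of the stretch were nearly silent. Clec4a4 had 1 count and Clec4b2 had 2 counts in all 6 libraries together, and Clec4b1 had 1 to 8 counts per library.

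Other C-type lectins of myeloid cells were compared through a separate list of 20 genes, of which 19 were in the table and 9 passed the filter. None of the 9 was called by edgeR, 4 had an unadjusted p under 0.05 (all lower), DESeq2 called 3 (Cd72, Clec4f and Clec9a, all lower) and limma-voom 0. Of all tested genes 9% had an unadjusted edgeR p under 0.05 on the lower side, and DESeq2 called 3.56% lower. The median log2 fold change was −0.73, with 8 negative and 1 positive, against 6230 negative and 6476 positive over all tested genes. Nothing is read from these counts. The mannose receptor gene Mrc1 measured 34.4 ± 6.04 and 36.8 ± 4.85 CPM in heterozygous and wild-type livers (log2 fold change −0.10 ± 0.15). Cd72, an inhibitory receptor of B cells and macrophages, measured 4.44 ± 0.18 and 9.01 ± 1.58 CPM (−1.02 ± 0.19, edgeR adjusted p = 0.0539). Clec1b, a receptor of platelets and Kupffer cells, measured 6.26 ± 0.57 and 10.4 ± 2.27 CPM (−0.73 ± 0.20). Clec9a, the receptor for dead cells on cross-presenting dendritic cells, had a log2 fold change of −0.88 ± 0.25.

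Clec4f, whose promoter drives the Cre, measured 4.31, 4.97 and 3.90 CPM in heterozygous replicates 1, 2 and 3, against 48.6, 38.5 and 5.42 CPM in wild-type replicates 1, 2 and 3. Wild-type replicate 3 was close to the heterozygous libraries for Clec4f. Among the wild-type libraries it was the highest for 3 of the 10 receptors (Clec4e, Clec10a and Clec5a) and the lowest for 0. How the receptor levels relate to the Clec4f level was not tested. The number of Cre copies per animal is not in the labels.

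A further list held 18 C-type lectins of hepatocytes, endothelium and stroma, of which 17 were in the table and 15 passed the filter. None was called by edgeR, DESeq2 or limma-voom, and 1 lower and 1 higher gene had an unadjusted edgeR p under 0.05. Of all tested genes 9% had such a p on the lower side and 4.2% on the higher side. The median log2 fold change was 0.09, with 5 negative and 10 positive. The asialoglycoprotein receptor genes of hepatocytes, Asgr1 and Asgr2, had log2 fold changes of 0.00 ± 0.11 and 0.04 ± 0.11. Clec4g, a lectin of sinusoidal endothelium, measured 62.6 ± 6.72 CPM in heterozygous and 42.7 ± 8.23 CPM in wild-type livers (0.55 ± 0.16), and Colec11, a soluble collectin, 38.5 ± 5.99 and 50.9 ± 6.96 CPM (−0.40 ± 0.15). Colec12, a scavenger receptor of endothelium, had 0.29 ± 0.13 and Mbl2, a mannose-binding lectin secreted by hepatocytes, 0.23 ± 0.13. The difference between these lists was not tested.

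**Figure D4:**
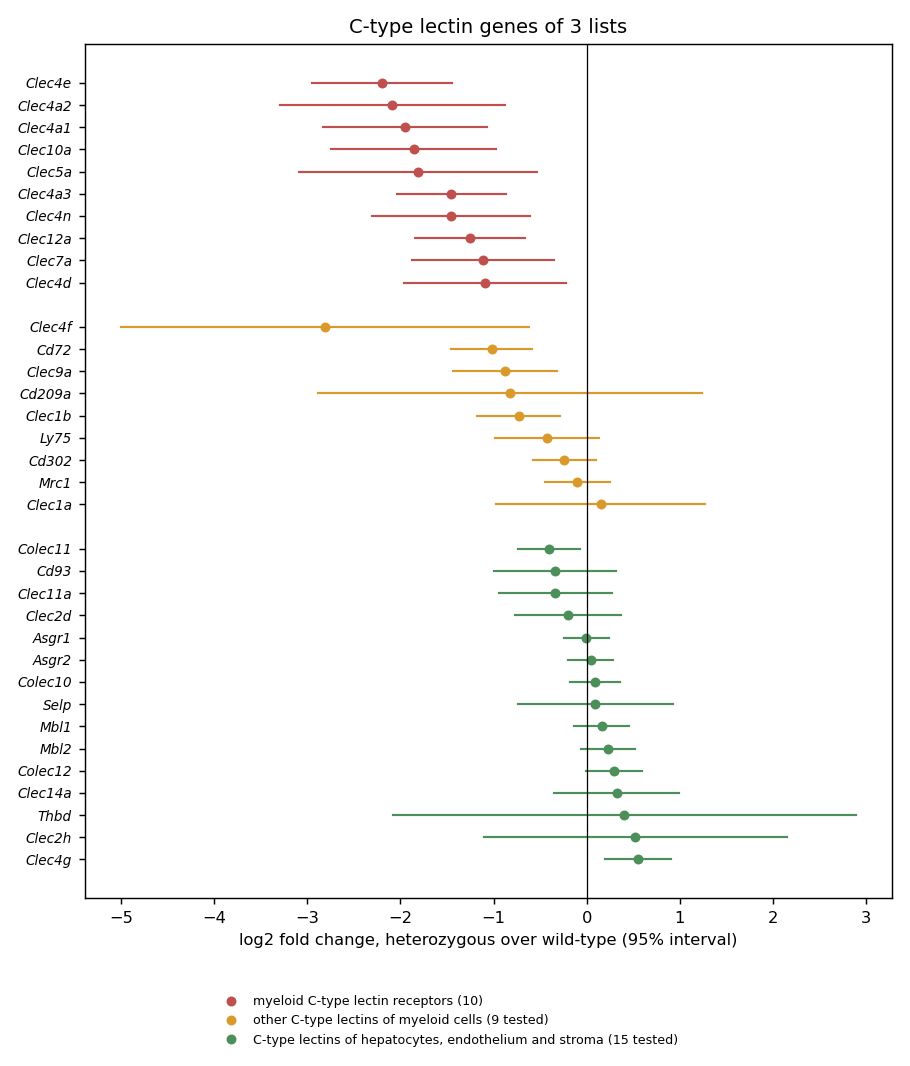
Log2 fold changes, heterozygous over wild-type, with 95% intervals from edgeR (3 libraries per group), for the 10 myeloid receptors (red), 9 other tested lectins of myeloid cells (orange) and 15 tested lectins of hepatocytes, endothelium and stroma (green). The 10 receptors lie between −2.20 and −1.09, whereas the green list has a median of 0.09.

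The chains and kinases through which the receptors signal were examined next, as a list of 15 genes, all tested. Vav1, an exchange factor activated by Syk, had 75, 57 and 99 counts in heterozygous replicates 1, 2 and 3, against 196, 285 and 178 in wild-type replicates 1, 2 and 3. It fell 2.75-fold (log2 fold change −1.46 ± 0.24, edgeR adjusted p = 0.0489). It was the 1 gene of the list past the threshold, and DESeq2 called 7 and limma-voom 0. Of all tested genes edgeR called 0.559% lower and DESeq2 3.56%. All 15 had negative log2 fold changes with a median of −1.08, as had 6230 of the 12706 tested genes. This list too was chosen with earlier results of these data known, so nothing is read from these counts. The Vav1 call was lost without each library except heterozygous replicate 3, with edgeR adjusted p from 0.0432 to 0.218 over the 6 fits. It was also lost under RLE scaling (0.0510), upper-quartile scaling (0.0525), a minimum of 1 CPM in 3 libraries (0.0509) and a non-robust fit (0.0668), all edgeR adjusted p, and in limma-voom (0.0769).

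Fcer1g, the signalling chain of Mincle, had 238, 158 and 314 counts in heterozygous replicates 1, 2 and 3, against 492, 847 and 549 in wild-type replicates 1, 2 and 3. The groups were apart, and the log2 fold change was −1.36 ± 0.26 (edgeR adjusted p = 0.0690). Syk measured 7.67 ± 1.93 and 17.0 ± 3.36 CPM in heterozygous and wild-type livers (−1.15 ± 0.22, edgeR adjusted p = 0.0539). Plcg2, a phospholipase downstream of Syk, had −1.18 ± 0.22 and Fgr, a Src family kinase of myeloid cells, −1.39 ± 0.27. Tyrobp, the chain of Clec5a, had −1.16 ± 0.22. Of the complex below Syk, Card9 measured 1.31 ± 0.20 and 2.78 ± 0.32 CPM (−1.08 ± 0.27). Bcl10 (−0.17 ± 0.13) and Malt1 (−0.07 ± 0.20) had log2 fold changes nearer 0, and the reason was not tested.

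The inhibitory phosphatase list had 3 genes, none called by edgeR, 2 with an unadjusted p under 0.05, 2 called by DESeq2 and 0 by limma-voom. Of all tested genes 9% had an unadjusted edgeR p under 0.05 on the lower side, and DESeq2 called 3.56% lower. Nothing is read from these counts. Inpp5d, the lipid phosphatase SHIP1 of blood cells, measured 6.81 ± 1.27 and 13.3 ± 1.30 CPM in heterozygous and wild-type livers (−0.97 ± 0.18). Ptpn6, the phosphatase SHP-1 of blood cells, had −0.65 ± 0.18, and its relative Ptpn11 0.08 ± 0.12.

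Of the genes linked to endogenous Mincle ligands, Sap130, which encodes a nuclear protein released by dying cells, measured 27.2 ± 0.80 CPM in heterozygous and 24.7 ± 4.73 CPM in wild-type livers (0.14 ± 0.15). Ugcg, the synthase of glucosylceramide, had a log2 fold change of −0.31 ± 0.13. Neither was called by edgeR, DESeq2 or limma-voom, and 1, Ugcg, had an unadjusted edgeR p under 0.05, as did 9% of tested genes on the lower side.

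Of 15 cytokine and mediator genes that the pathway can induce, 9 passed the filter. Nos2, the inducible nitric oxide synthase, was called, with 9, 5 and 16 counts in heterozygous replicates 1, 2 and 3, against 83, 117 and 69 in wild-type replicates 1, 2 and 3. Its log2 fold change was −3.10 ± 0.39 (edgeR adjusted p = 0.0308). The Nos2 call held without heterozygous replicate 3 or wild-type replicate 3 and was lost without each of the other 4 libraries, with edgeR adjusted p from 0.0235 to 0.180, and it was lost in limma-voom (adjusted p = 0.0549). Tnf measured 1.88 ± 0.90 and 3.88 ± 0.59 CPM in heterozygous and wild-type livers (−1.04 ± 0.34, edgeR adjusted p = 0.203), the prostaglandin synthase gene Ptgs2 −1.29 ± 0.50, the monocyte chemokine gene Ccl2 −0.87 ± 0.37 and the chemokine gene Ccl3 −1.46 ± 0.64 as log2 fold changes. The neutrophil chemokine gene Cxcl1 varied most, with 65, 3297 and 480 counts in heterozygous replicates 1, 2 and 3, against 1751, 173 and 628 in wild-type replicates 1, 2 and 3. Il6, Il10, Il12b, Il23a, Csf2 and Csf3 were too scarce to test, with 0 to 16 counts per library.

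**Figure D5:**
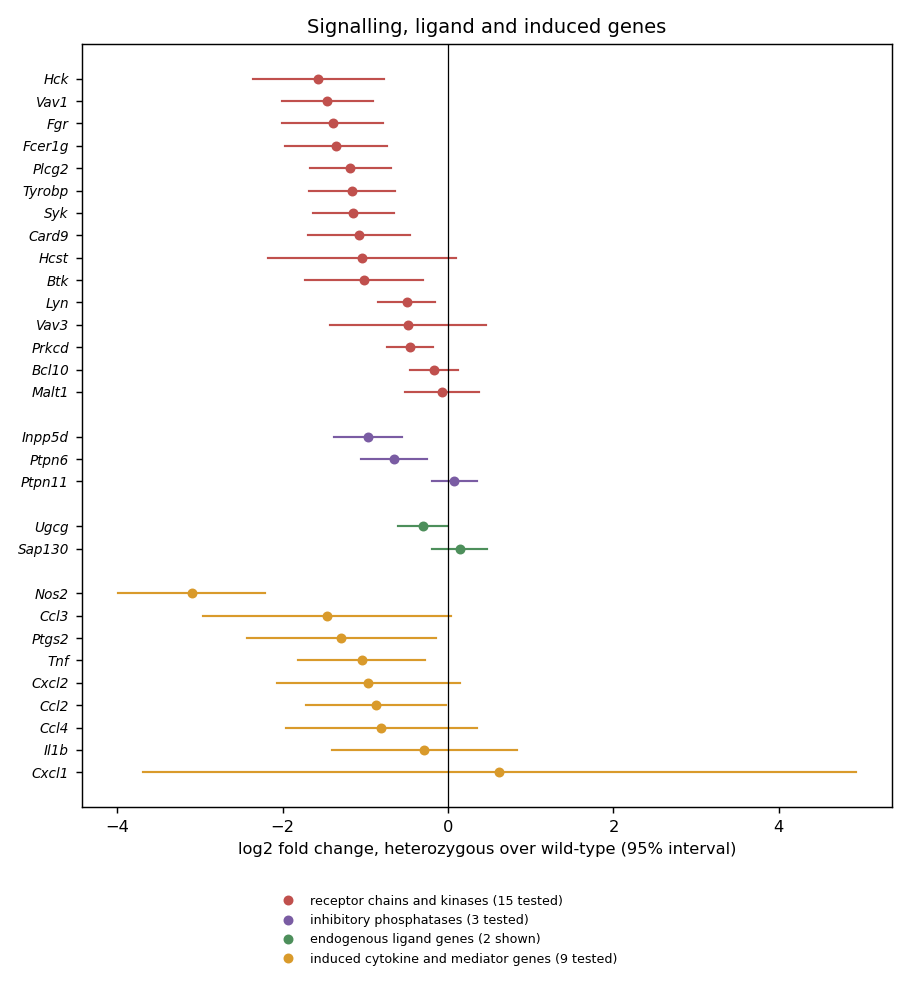
Log2 fold changes, heterozygous over wild-type, with 95% intervals from edgeR (3 libraries per group), for 15 signalling chains and kinases (red), 3 inhibitory phosphatases (purple), 2 endogenous ligand genes (green) and 9 induced cytokine and mediator genes (orange). Vav1 and Nos2 passed the threshold, Bcl10 and Malt1 lie near 0, and Cxcl1 has the widest interval.

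Among 7 genes of factors known to regulate Clec4e, Spi1, which encodes the myeloid factor PU.1, fell 2.46-fold to 7.85 ± 2.03 CPM in heterozygous livers, against 19.4 ± 3.28 CPM in wild-type livers (log2 fold change −1.30 ± 0.21, edgeR adjusted p = 0.0463). The Spi1 call held without heterozygous replicate 3 and was lost without each of the other 5 libraries, with edgeR adjusted p from 0.0394 to 0.218. It was also lost under upper-quartile scaling (0.0525) and a non-robust fit (0.0668), both edgeR adjusted p, and in limma-voom (0.0756). The log2 fold changes of the other 6 lay nearer 0, with Cebpb at −0.25 ± 0.37, Cebpd at −0.19 ± 0.64, Cebpa at 0.14 ± 0.18, Nfkb1 at −0.28 ± 0.11, Rela at −0.09 ± 0.15 and Hif1a at −0.05 ± 0.17. Hepatocytes express several of these genes, so whole-liver levels say little about macrophages.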

How the data were processed

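The authors deposited raw counts, whole reads per gene symbol without normalization, in 1 table with 1 column per sample. Build GRCm39, Trimmomatic 0.36, HTSeq 0.9.1 and HISAT2 2.2.1.0 are named, per the submitters' processing notes, and per the labels' protocols libraries were stranded, from 500 ng of TRIzol RNA. Neither the annotation nor the counter's strand setting is given in the sources used here. Groups and replicate numbers come from the sample titles. Nothing ties each sample to its own animal, and the spread behind each p-value may be technical. No 2 libraries agreed within sampling noise (chi-square per degree of freedom at least 22.1).

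In R 4.3.3, edgeR 4.0.16 (filterByExpr, TMM, robust glmQLFit, glmQLFTest) tested 12706 genes without covariates, with Benjamini-Hochberg adjustment at 0.05 over all of them. SEs are the log2 fold change over the square root of F. Alternatives used DESeq2 1.42.0, limma 3.58.1 (voom), other scalings, other filters and left-out libraries. Members and lists were chosen with earlier results of these data known. Named genes were all members, in each list those past the threshold plus up to 4 others with the smallest p, and the 5 profiles nearest Clec4e. Fcer1g, Card9, Bcl10, Malt1, Mrc1, Asgr1, Asgr2, Cebpd, Hif1a and Cxcl1 were added after their values were seen. Promoter windows are from RefSeq (GRCm38.p6), and 17027 of the 17119 symbols matched its gene table. Protein sequences were not analysed here, and 1 gene of the ligand list is not reported here.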

Additional observations from a re-analysis of the deposited data

How the results depend on the processing

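All 150 log2 fold changes of the 10 receptors over 15 alternatives were negative, which the lack of overlap between the groups largely fixes. Against 74 genes called over all genes and 1 receptor (Clec4e), the counts of genes and receptors called were 37 and 1 with upper-quartile scaling, 211 and 4 without the low-count filter, 48 and 1 at a minimum of 1 CPM in 3 libraries, 20 and 0 with a non-robust edgeR fit, 534 and 8 in DESeq2, and 0 and 0 in limma-voom, where 1686 genes had an unadjusted p under 0.05. RLE scaling gave 50 genes, with Clec4e among them. Leaving out each library in turn gave 0 to 122 genes and 0 receptors. Leaving out wild-type and heterozygous replicate 2 together, chosen after seeing the data, gave 0 genes and 0 receptors (1467 genes at an unadjusted p under 0.05). With the replicate number as a block edgeR called 0 genes and 0 receptors (1427 at an unadjusted p under 0.05). For replicates 1, 2 and 3 the pairing check gave correlations of −0.212, −0.307 and 0.186 across genes between the 2 libraries of a number, each as its deviation from its group, and no pairing was assumed. The cause of these shifts was not tested. Over 14 alternatives the count of called signalling chains and kinases lay between 0 and 7, of other myeloid lectins between 0 and 3, of phosphatases between 0 and 2, and of induced genes and of regulators between 0 and 1, and 0 ligand genes and 0 lectins of hepatocytes, endothelium and stroma were called under any of them. Relative to leukocyte and macrophage genes, the Clec4e difference lay between −1.39 and −0.81 on the log2 scale. Depth limits Clec5a most, with as few as 1 count in a library.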
